A study of Saccharomyces cerevisiae and Saccharomyces paradoxus with 173 samples.

Results

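The histone genes described here are the 8 core genes HTA1 and HTA2 (histone H2A), HTB1 and HTB2 (H2B), HHT1 and HHT2 (H3) and HHF1 and HHF2 (H4), together with HHO1, which encodes the linker histone H1. They were taken by their standard names, matched to systematic identifiers, and all 9 were found among the 6172 genes of the expression table. The samples were 173 RNA preparations from 10 natural yeast strains, 9 labelled Saccharomyces cerevisiae (YPS183, YPS2055, YPS2060, YPS2066, YPS2067, YPS2073, YPS2079, YPS3060 and YPS3137) and YPS3395, labelled S. paradoxus. A single culture of each strain in synthetic dextrose medium, grown at 30 °C, was held in late G1 for about 75 min by the mating pheromone alpha factor at 4 µM, washed and released into fresh medium at 18 °C, and sampled at 15 to 18 times between 0 and 345 min. Each sample was hybridised in 2 colours to spotted oligonucleotide arrays against RNA of unsynchronised YPS183 in rich medium. The deposited value is a log ratio, treated here as log2 and likely sample over reference, so a value of 0 means the level of the reference.

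Nucleosomes wrap DNA around H2A, H2B, H3 and H4, and a dividing cell has to make new histones while it copies its chromosomes. In budding yeast each core histone is encoded by a pair of genes, arranged as 4 divergent couples that share a promoter, and their transcription rises in late G1 and S phase and is turned down outside it. The HIR complex and other chaperones take part in that repression, and free histones in excess are toxic and are degraded. HHO1 stands apart from these couples.

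In the RefSeq annotation of assembly R64, HTA1 (YDR225W) is next to HTB1 (YDR224C), HTA2 (YBL003C) next to HTB2 (YBL002W), HHT1 (YBR010W) next to HHF1 (YBR009C) and HHT2 (YNL031C) next to HHF2 (YNL030W). HHO1 (YPL127C) lies between TBF1 and NAN1. Members of a paralog pair are closely similar in coding sequence, and the array's probe sequences were not used here, so the paralogs' values may share signal. Levels were not compared between genes, since each ratio is relative to that gene's own level in the reference. In RNA from whole cultures, more cells in S phase and more histone RNA per cell cannot be told apart.

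Between 1 and 5 arrays stood behind a sample, 377 in all, and each sample's median over all genes lay from -0.066 to 0.039. In 40 samples some arrays came from prints older than 2007: 17 of 18 samples of YPS2073, 9 each of YPS3060 and YPS3137, and 5 of YPS183. YPS2073 stood apart in its histone values and the window comparisons are given with and without it. Sampling alternated between times called set A (0, 48, 87, 135, 176, 218, 251, 284 and 325 min) and the times between them, called set B. Among markers of a cells at 0 min, MFA1 ranged from -1.79 to 2.14 over the strains and MFA2 from -1.095 to 2.44. AGA2 ranged from -1.60 to 1.88, STE2 from -0.73 to 1.11, STE6 from -0.87 to 0.15 and BAR1 from -2.05 to 1.21. The pheromone-induced AGA1 ranged from -2.21 to 3.05, FIG1 from -0.48 to 3.48 and FUS1 from -0.74 to 0.99. MF(ALPHA)1, which alpha cells express, ranged from -0.31 to 0.58.

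The strains' cultures were compared at 4 windows of sampling time, with the strain as the replicate (n = 10). The early window held 0 and 24 min, the first S phase window 63, 87, 111 and 135 min, the mitotic window 176, 194, 218 and 227 min, and the later S phase window 284, 301, 325 and 345 min. These names describe the times chosen and no measured phase. A gene was said to rise or fall where limma gave an adjusted p under 0.05 over all 6172 genes, with strain as a block.

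**Figure D1:**
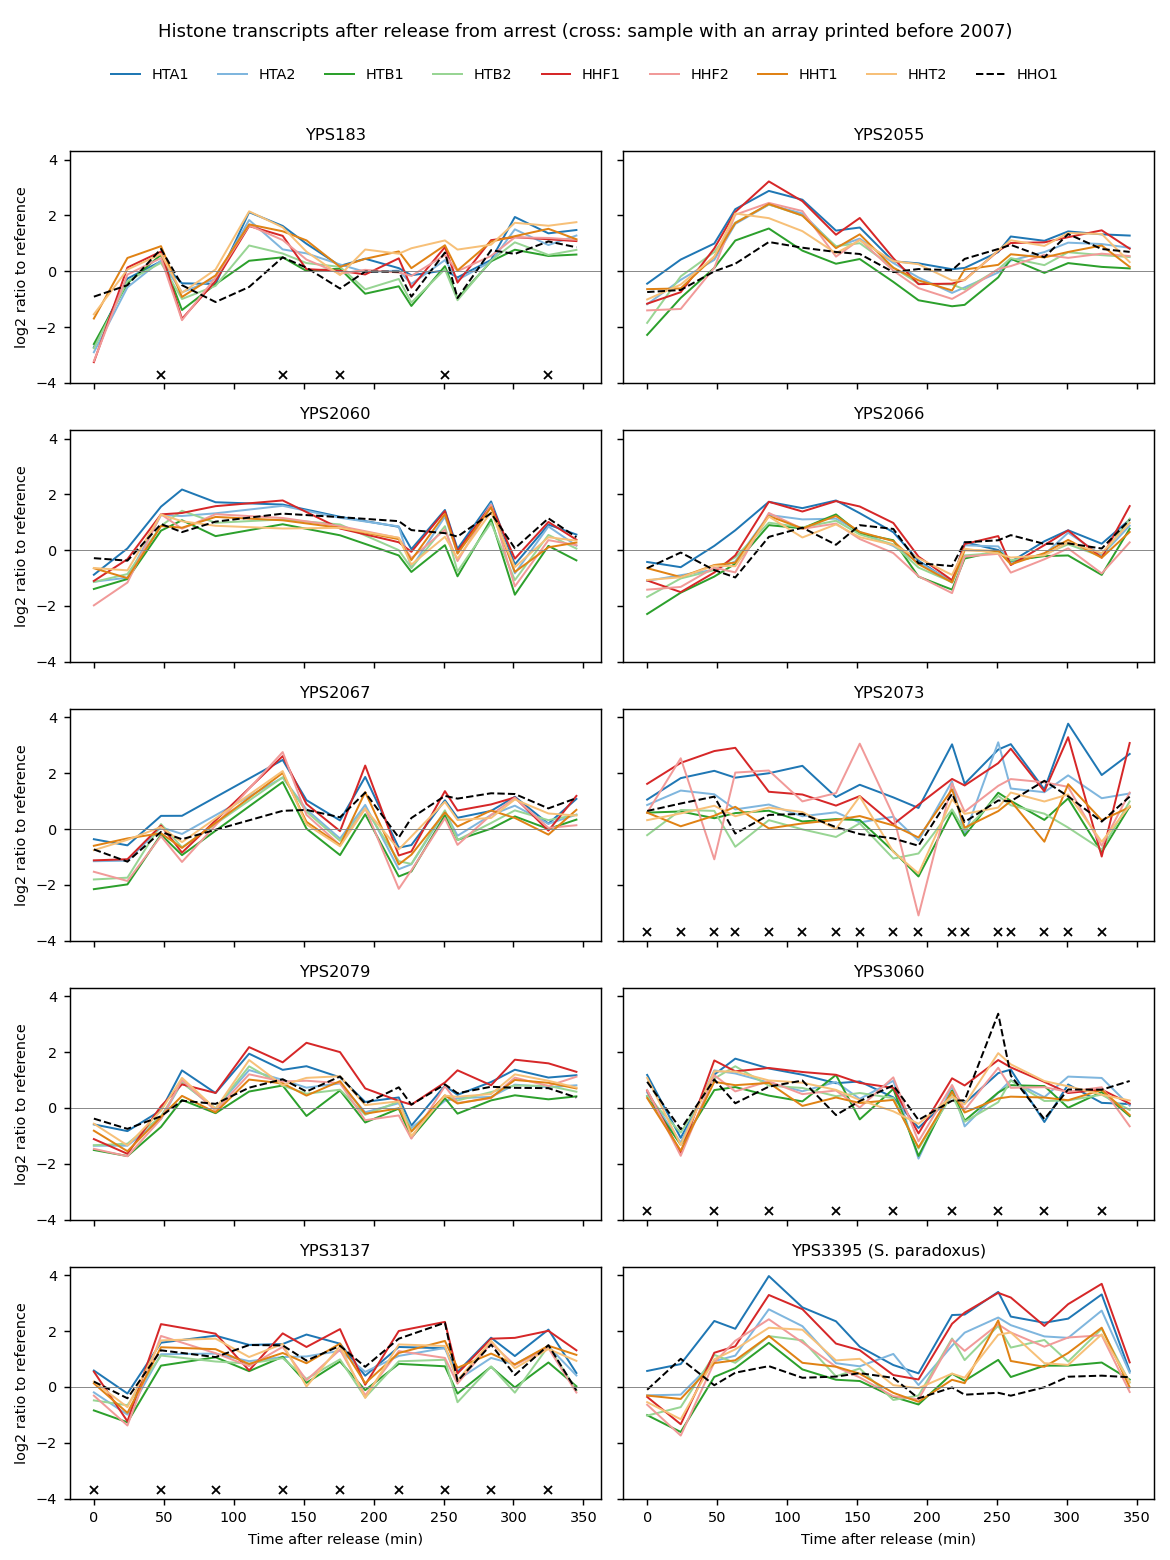
Log2 ratio to the common reference (vertical axis) against time after release in minutes (horizontal axis) for the 9 histone genes in each of 10 strains, 1 line per gene, with crosses marking samples that include an array printed before 2007. The core genes start low and reach a first maximum near 63 to 135 min in most strains, while YPS2073 and YPS3060 start high, with HTA1 at 1.06 and 1.18 at 0 min.

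All 8 core histone genes and HHO1 rose from the early window to the first S phase window. Of all genes, 10.2% passed this test, 5.35% rising and 4.83% falling. The 8 core genes took ranks 1 to 6, 9 and 10 of 6172 by the size of the rise, and HHO1 rank 43. The median change was 1.75 for the 9 histone genes and -0.01 for all genes, on the log2 scale.

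Among the H2A genes, the early window mean of HTA1 over the 10 strains ran from -1.49 in YPS183 to 1.44 in YPS2073, with a median of -0.21. In the first S phase window it ran from 0.71 in YPS183 to 2.81 in YPS3395, with a median of 1.55. The ranges of the strains overlapped between windows, but within each of the 10 strains the later mean was the higher, as it was for 1.6% of all genes. The change of HTA1 was 1.79 ± 0.17 (SE, n = 10; limma adjusted p = 1.27e-07). HTA2 changed by 1.75 ± 0.20 (limma adjusted p = 8.82e-07) and was higher in 9 of 10 strains, with YPS2073 at -0.46.

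The H2B genes moved by as much. HTB1 went from a median over strains of -1.42 in the early window to 0.64 in the first S phase window, a change of 1.78 ± 0.20 (SE; limma adjusted p = 8.82e-07). HTB2 went from -1.01 to 0.83, a change of 1.72 ± 0.20 (limma adjusted p = 8.82e-07). YPS2073 again was the exception in direction for both, at -0.15 and -0.38, and YPS2055 rose most, by 2.53 and 2.77.

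The H4 genes had the largest rises of all genes. HHF1 rose by 2.07 ± 0.24 (SE; limma adjusted p = 1.09e-06) and HHF2 by 2.05 ± 0.24 (limma adjusted p = 1.19e-06). Over strains, the HHF1 change ran from -0.41 in YPS2073, through a median of 2.13, to 3.25 in YPS2055. The next lowest strain, YPS183, stood at 1.77.

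The H3 genes rose less. HHT1 changed by 1.38 ± 0.16 (SE; limma adjusted p = 8.82e-07) and HHT2 by 1.54 ± 0.15 (limma adjusted p = 1.32e-07). HHT2 was higher in 10 of 10 strains, although in YPS2073 by 0.02 alone. For HHT1 the same strain was at -0.01, and the other strains lay between 1.12 and 2.37.

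The linker histone gene HHO1 rose by 0.70 ± 0.18 (SE; limma adjusted p = 0.0115), in 9 of 10 strains. Its early window mean had a median of -0.35 over strains and its first S phase mean a median of 0.45. The rise of HHO1 was below the core median in 10 of 10 strains and below all 8 core genes in 9 of them, a difference given without a test. In the S. paradoxus strain it was 0.04, beside a core median of 2.11. The call for HHO1 was lost without YPS2055, with a limma adjusted p of 0.0554, and with set B times alone, with 0.266.

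Read sample by sample, the separation was less complete than the means. In YPS2055, HTA1 stood at -0.44 and 0.42 at 0 and 24 min and at 2.22, 2.88, 2.56 and 1.46 at 63, 87, 111 and 135 min. Every one of those later samples was above both early ones. In YPS183, HTA1 stood at -2.72 and -0.26 at the early times and at -0.43, -0.46, 2.12 and 1.62 at the later ones, so the groups overlapped. YPS2073 had 1.06 and 1.83 early and 1.84, 2.00, 2.27 and 1.15 later, which overlapped as well.

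All first S phase samples lay above both early samples for 9 of 9 genes in YPS2055, YPS2060, YPS2079 and YPS3137. The count was 8 in YPS2066 and YPS3395, 7 in YPS2067, 2 in YPS3060 and 0 in YPS183 and YPS2073. Fewer samples make such separation easier, and the first S phase window held 3 in YPS2060 and YPS3137 and 2 in YPS2067, against 4 in the other strains. By gene, 8 strains were so separated for HTA2 and HHF1, 7 for HTA1, HTB1, HTB2 and HHF2, 6 for HHT1 and HHT2 and 5 for HHO1, while the median over all genes was 1. Over all genes, 1.07% were separated in at least 6 strains.

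YPS2073 and YPS3060 differed from the other strains at 0 min. In YPS3060 the mean of the 9 genes was 0.69 at 0 min, -1.27 at 24 min and 1.15 at 48 min. Older prints made up 2 of the 4 arrays at 0 min, 1 of the 2 at 48 min and 0 of the 2 at 24 min. In YPS2073 the mean was 0.67 at 0 min and 1.22 at 24 min, with 2 of 3 and 2 of 2 arrays on older prints, against -2.40 to -0.02 at 0 min in the 8 strains other than these. The part of the print in these values was not tested. Samples on 2007 prints alone include neither of these strains' 0 min samples. Over those samples the rise was called for 9 of 9 histone genes, and for 777 genes in all. Without YPS2073, YPS3060 and YPS3137 it was called for 9 of 9, and for 616 genes in all. Without those 3 strains the change of HTA1 was 2.11 and that of HHF1 2.51. Without YPS2073 alone, 9 of 9 genes also rose, the core genes by 1.53 (HHT1) to 2.35 (HHF1) and HHO1 by 0.84 (limma adjusted p = 0.00172).

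**Figure D2:**
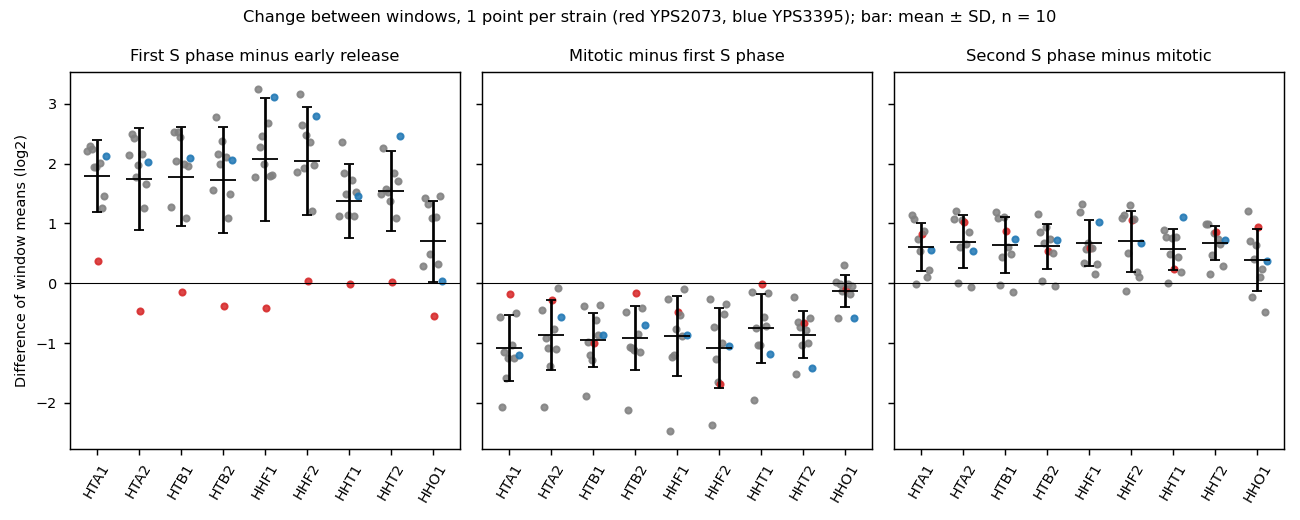
Difference between window means on the log2 scale (vertical axis) for each histone gene (horizontal axis), with 1 point per strain and the mean ± SD of 10 strains as a bar, for the early to first S phase, first S phase to mitotic and mitotic to later S phase steps. YPS2073 (red) is the lowest strain for every gene in the first step, and all 10 points of each core gene are below 0 in the middle step.

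From the first S phase window to the mitotic window, 8 of 9 histone genes fell, all of them core genes, and HHO1 did not pass the test. Of all genes, 2.14% passed, 0.778% falling and 1.36% rising. Each core gene was lower in 10 of 10 strains. The median change was -0.88 for the 9 genes and 0.00 for all genes.

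HTA1 fell by 1.08 ± 0.17 on the log2 scale (SE; limma adjusted p = 0.00148), from a strain median of 1.55 to 0.25. HTA2 changed by -0.87 (limma adjusted p = 0.0156), HTB1 by -0.94 (0.00869) and HTB2 by -0.92 (0.00989). YPS2055 had the deepest fall for each of these, at -2.07, -2.08, -1.88 and -2.11.

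HHF1 changed by -0.88 ± 0.24 (SE; limma adjusted p = 0.0457) and HHF2 by -1.09 ± 0.24 (0.0127). HHT1 changed by -0.75 ± 0.16 (limma adjusted p = 0.00869) and HHT2 by -0.86 ± 0.15 (0.00271). HHO1 changed by -0.13 ± 0.18 (limma adjusted p = 0.821), higher in 2 strains and lower in 8. Its fall was smaller than the core median fall in 10 of 10 strains, a difference that was not tested. Without YPS2055 the count of genes that fell was 3, after quantile normalization it was 2, and with set A times alone it was 0, where all 8 core differences were still below 0. Without YPS2073 the 8 core genes fell, with changes from -1.18 (HTA1) to -0.84 (HHT1).

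In the S. paradoxus strain the mitotic window spanned a trough and a new rise in the mean of the 9 genes. That mean was 0.16 at 176 min, -0.17 at 194 min, 1.21 at 218 min and 1.09 at 227 min. HHT1 went from -0.21 and -0.53 at 176 and 194 min to 0.25 and 0.13 at 218 and 227 min. At the same times HHT2 went from 0.06 and -0.05 to 0.47 and 0.33. HHO1 went from 0.32 and -0.41 to -0.02 and -0.28. The 218 min sample rested on 1 array. HTA1 there stood at 0.78 at 176 min and 0.49 at 194 min, then at 2.57 and 2.59 at 218 and 227 min. The same times gave 0.35, 0.28, 0.07 and 0.12 in YPS2055. A common window therefore held different parts of the curve in these strains.

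No histone gene passed the test from the mitotic to the later S phase window, and neither did any other gene of the table, of which 0% were called. At an unadjusted limma p under 0.05 were 9 of 9 histone genes, all higher, and 239 of 6172 genes, 107 of them higher. The changes ran from 0.39 for HHO1 to 0.70 for HHF2. By size, 7 of the 9 histone genes were among the 9 largest increases of the table, with HHT1 at rank 13 and HHO1 at rank 25.

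HHT2 had the lowest p of the histone genes, with a change of 0.67 ± 0.15 (SE; limma adjusted p = 0.419), and was higher in 10 of 10 strains. HHF1 and HHT1 were also higher in 10 of 10 strains, with changes of 0.68 and 0.56 (limma adjusted p = 1.00 for both). HTA1 changed by 0.61 ± 0.17 (limma adjusted p = 1.00), from -0.01 in YPS2060 to 1.14 in YPS183. The core median change was 0.00 in YPS2060 and 0.15 in YPS3137, the lowest among the strains. Without YPS2073, 0 of 9 passed, with changes from 0.33 for HHO1 to 0.69 for HHF1.

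The later S phase window was not shown to differ from the first one for any histone gene. Of all genes, 5.15% passed this comparison, 2.19% lower and 2.97% higher in the later window, while 0 of 9 histone genes passed. At an unadjusted limma p under 0.05 was 1 histone gene, beside 1110 of 6172 genes. HTA1 changed by -0.47 ± 0.17 (SE; limma adjusted p = 0.114) and was lower in 8 of 10 strains. The median over the 9 genes was -0.20, beside 0.00 for all genes. HHO1 alone had a positive mean, 0.26 ± 0.18 (limma adjusted p = 0.504), higher in 7 of 10 strains. HTA1 passed over samples on 2007 prints alone, with a change of -0.59 (limma adjusted p = 0.0109), and also without YPS183 (0.0482) or without YPS2073 (-0.60, 0.0301).

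Strains differed in this comparison. The core median was 0.75 in YPS183, where all 8 core genes were higher in the later window. It was -1.08 in YPS2055, -0.90 in YPS2060 and -0.58 in YPS2066, where all 8 were lower.

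Times of the highest sample describe the same courses without windows. The first maximum was taken from 24 to 227 min and the later one from 251 to 345 min, as a description with no test. The median over the 9 genes of the first maximum was 87 min in YPS2055, YPS2060 and YPS3395, 111 min in YPS183 and YPS2079, and 135 min in YPS2066, YPS2067 and YPS3137. It was 48 min in YPS3060 and 218 min in YPS2073. In YPS2073 this came after the lowest sample, sought from 152 to 284 min, which had a median of 194 min. The mean of the 9 genes there was 0.95 at 48 min, -0.77 at 194 min and 1.47 at 218 min. The later maximum had a median of 251 min in YPS3395, 260 min in YPS2073 and YPS3060, 284 min in YPS2060 and YPS3137, 301 min in YPS183, YPS2055, YPS2067 and YPS2079, and 345 min, the last time sampled, in YPS2066.

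The core genes kept together in some strains and not in others. All 8 core genes peaked together in YPS2067, at 135 min, and in YPS3395, at 87 min. So did 7 of 8 at 111 min in YPS183 and at 87 min in YPS2055. YPS2067 had no samples at 87 and 111 min. In YPS3137 no more than 3 core genes shared a time, and their first maxima ran from 48 to 176 min. Of 80 combinations of core gene and strain, 54 had a higher first than later maximum. The first span held more sampling times than the later one, which by itself favours a higher first maximum. Read from a spline curve fitted to each course, the count went from 6 to 0 of 8 in YPS183 and from 3 to 8 in YPS2060.

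Landmark genes put these times in order. RNR1, the large subunit of ribonucleotide reductase and a late G1 transcript, had its first maximum before the histone median in 9 strains and at the same time in YPS2066. POL30, the replication clamp PCNA, was before it in 8 strains. CLB2, a mitotic cyclin, was after it in 9 strains. The exception was YPS2073, with CLB2 at 135 min and the histone median at 218 min, after the low at 194 min. The RNR1 and POL30 counts use the same 218 min for YPS2073.

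HHO1 had its first maximum after the core genes' commonest time in several strains. It was at 135 min in YPS2060, 152 min in YPS2066, 194 min in YPS2067, 176 min in YPS2079 and 218 min in YPS3137. At 194 min in YPS2067 the mean of the 9 genes was also high, at 1.15. It was -0.31 at 176 min and -1.15 at 218 min. In YPS2060 and YPS3137 only 3 of the 8 core genes held the commonest time. On a spline curve fitted to each course, HHO1 and that commonest time were both at 135 min in YPS2060 and YPS2079. HHO1 stayed later on that curve in YPS2066, YPS2067 and YPS3137. On the curve it was also later in YPS183, at 152 min beside 135 min, and in YPS3060, at 227 min beside 111 min. By sample, the HHO1 maximum was not later in YPS183, YPS2055, YPS2073, YPS3060 or YPS3395. The HHO1 maximum was at 87 min in YPS2055, with most core genes, at 48 min in YPS183 and YPS3060, and at 24 min in YPS3395. In the YPS183 sample at 48 min, 2 of 2 arrays were of older prints. The mean of the 9 genes in YPS183 was -0.17 at 24 min, 0.57 at 48 min and -1.02 at 63 min. The highest HHO1 value was 3.38, in YPS3060 at 251 min on 1 array of an older print, beside 1.16 in that strain at 260 min.

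**Figure D3:**
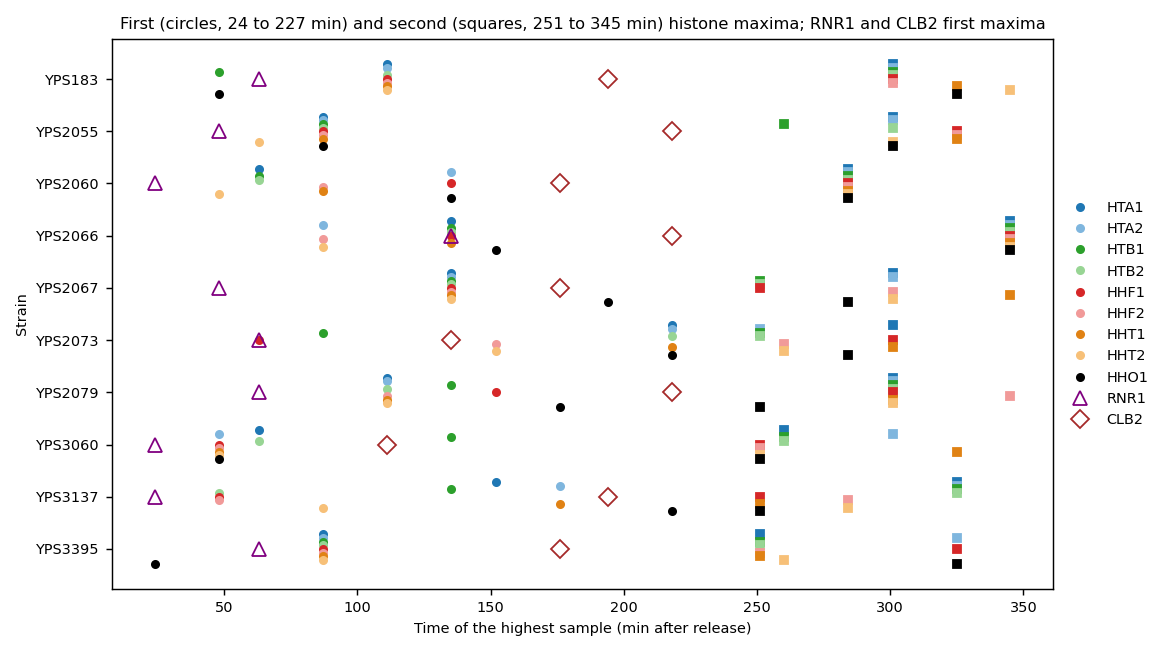
Time of the highest sample in minutes after release (horizontal axis) for each histone gene in each strain (vertical axis), with circles for the first and squares for the later maximum, and open symbols for the first maxima of RNR1 and CLB2. RNR1 lies at or before the histone median in 10 strains and CLB2 after it in 9.

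Within single strains, a spline of time was fitted with limma for all genes, and a gene was called where its adjusted p was under 0.05 and its fitted range at least 1. There was 1 culture per strain, so this test rests on scatter around the curve and not on the spread between cultures. In YPS2055, 6 of 9 histone genes were called, beside 3.45% of all genes: HTA1, HTA2, HTB1, HTB2, HHF1 and HHT1. HTB2 had a fitted range of 3.96 (limma adjusted p = 5.07e-04) and HHF1 of 4.29 (0.0182). In YPS3395, 5 were called, beside 5.12% of genes: HTA1, HTA2, HTB2, HHF1 and HHT2, with HHF1 at a range of 4.03 (limma adjusted p = 0.00137).

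In 3 other strains 3 genes each were called. These were HTA1, HTA2 and HTB2 in YPS183, beside 3.05% of genes, and HTA1, HTB1 and HTB2 in YPS2066, beside 6.84%. In YPS2067 they were HTB1, HTB2 and HHO1, beside 8.3%, and the fitted maximum of HHO1 there was at 284 min. None of the 9 was called in YPS2060, YPS2073, YPS2079, YPS3060 or YPS3137, where 0.146%, 5.9%, 0.518%, 1.33% and 1.56% of genes were. At an unadjusted limma p under 0.05 were 7 of 9 in YPS2079, 4 in YPS2060, 1 in YPS3060 and 0 in YPS2073 and YPS3137. The share of all genes at that unadjusted threshold was not counted. The adjusted calls moved with the processing, as did those over all 6172 genes, given here in brackets. Over samples on 2007 prints alone they numbered 8 in YPS183 (657), 6 in YPS2066 (738) and 5 in YPS2067 (1051). After quantile normalization they numbered 9 (1107), 1 (248) and 1 (474), with 3 in YPS2055 (173). YPS2067 had 5 with 5 spline degrees of freedom (645) and with a term for the sampling set (865).

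Histone samples alternated between neighbouring times in some strains. The mean of the 9 genes at a set A time was compared with the value interpolated from the set B times on either side. It was higher by 1.17 on average in YPS2060 (4 of 4 times) and by 0.84 in YPS3137 (4 of 4). In YPS3060 it was higher by 0.47 (7 of 8), in YPS3395 by 0.41 (5 of 8) and in YPS183 by 0.26 (5 of 8). In the other strains the mean difference lay from -0.12 to 0.11. In YPS2060 the mean of the 9 genes was 0.91 at 251 min, -0.24 at 260 min, 1.44 at 284 min and -0.77 at 301 min. The YPS2060 samples at 227 and 260 min rested on 1 array each, without a dye swap. Both served as neighbours of the 251 min sample, and the 260 min sample also of the 284 min sample. The part of array number in the YPS2060 difference was not tested. That strain had no older prints, whereas all set A samples of YPS3060 and YPS3137 had them. The rise into the first S phase was called for 9 of 9 genes with set A times alone and for 8 of 9, all but HHO1, with set B times alone.

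Pairs of histone genes were followed over each strain's 15 to 18 times by Pearson's r, given as a description, since the points share a culture and an array. Over 80 combinations of pair and strain, 69 had an r above 0.8. The median over strains was 0.93 for HTA1/HTA2, 0.96 for HTB1/HTB2, 0.90 for HHT1/HHT2 and 0.93 for HHF1/HHF2. For the divergent neighbours it was 0.87 for HTA1/HTB1, 0.96 for HTA2/HTB2, 0.93 for HHT1/HHF1 and 0.92 for HHT2/HHF2. Paralogs shared the time of the first maximum in 22 of 40 combinations and neighbours in 24 of 40.

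YPS2073 had the lowest r for 7 of the 8 pairs, and YPS3060 for HTA1/HTB1, at 0.63. In YPS2073 the median r was 0.67 and HHF1/HHF2 had 0.34. HHF2 there stood at 2.54, -1.08 and 2.02 at 24, 48 and 63 min while HHF1 stood at 2.37, 2.80 and 2.91. At 194 min HHF2 was at -3.09 and HHF1 at 0.87. Elsewhere HHF1/HHF2 had an r of 0.89 or more.

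**Figure D4:**
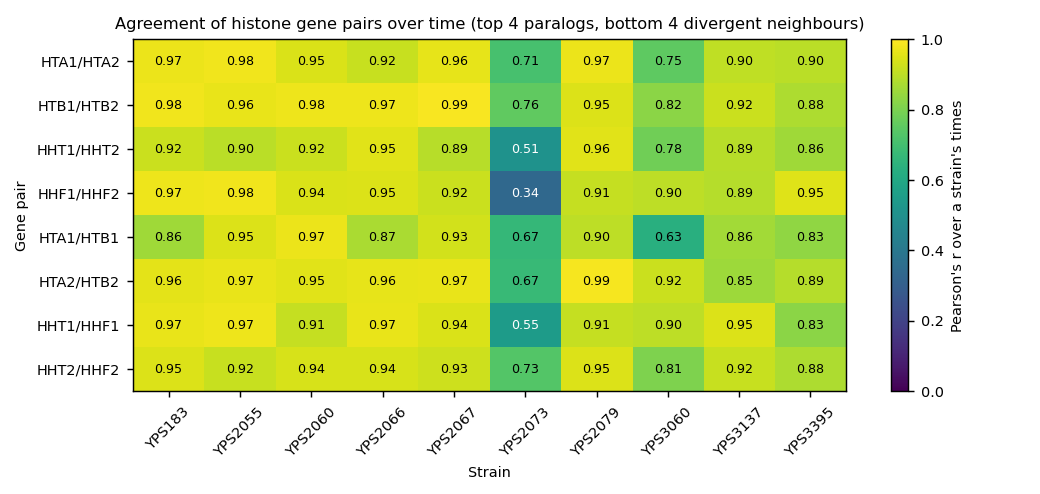
Pearson's r over a strain's sampling times (colour and printed value, scale 0 to 1) for 4 paralog pairs and 4 divergent neighbours (vertical axis) in each strain (horizontal axis). The YPS2073 column is lowest for 7 of 8 pairs, down to 0.34 for HHF1/HHF2.

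The size of the first S phase rise differed between H3 genes and their H4 neighbours. Each pair's change was compared over the 10 strains by an exact two-sided sign-flip permutation test, over 8 pairs with Benjamini-Hochberg adjustment. HHT2 rose by 0.51 ± 0.39 less than HHF2 (SD, n = 10), less in 10 of 10 strains, with an exact p of 0.00195, the smallest the design allows (adjusted p = 0.0156). HHT1 rose by 0.69 ± 0.54 less than HHF1, less in 9 of 10 strains (exact p = 0.00586, adjusted p = 0.0234). A compressed range of 1 probe and a smaller change of transcript cannot be told apart. With set B times alone the differences were -0.52 for HHT1 minus HHF1 (adjusted exact p = 0.41) and -0.17 for HHT2 minus HHF2 (0.565).

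The other 6 pairs were not shown to differ, with adjusted exact p from 0.5 to 0.971. HTA1 minus HTB1 was 0.00 ± 0.48 (SD, n = 10), HTA2 minus HTB2 0.02 ± 0.29, HTA1 minus HTA2 0.04 ± 0.31 and HTB1 minus HTB2 0.06 ± 0.28. The H4 paralogs differed by 0.03 ± 0.40 and the H3 paralogs by -0.16 ± 0.35.

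**Figure D5:**
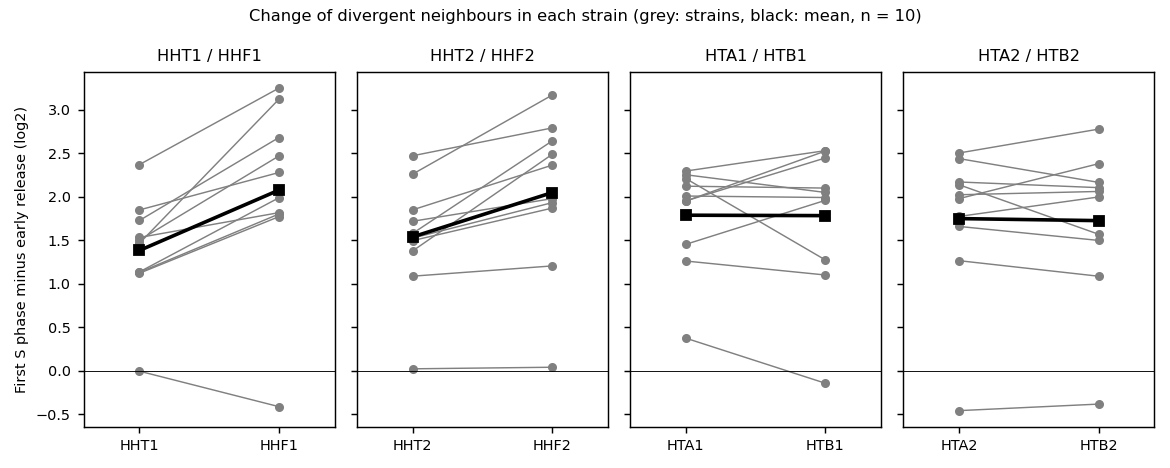
Change from the early to the first S phase window on the log2 scale (vertical axis) for the genes of each divergent couple (horizontal axis), with 1 grey line per strain and the mean of 10 strains in black. Lines run upwards from HHT2 to HHF2 in 10 of 10 strains and from HHT1 to HHF1 in 9, while those of the H2A and H2B couples run both ways.

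Levels over the whole course were compared between strains at the 12 times all strains share, with a limma adjusted p under 0.05 and a size of at least 1 as the threshold. In YPS2073, HTA1 was 1.47 ± 0.18 (SE; limma adjusted p = 9.56e-11) and HHF1 1.26 ± 0.24 (9.60e-06) above the average over the other S. cerevisiae cultures. Of all genes, 3.27% passed in YPS2073, 1.47% as higher. In YPS3395, HTA1 was 1.15 ± 0.18 above the S. cerevisiae mean (limma adjusted p = 1.03e-07). There 3.81% of all genes passed, 1.54% as higher. No histone gene passed in the other 8 strains, where 3.32% (YPS183), 0.518% (YPS2055), 0.0972% (YPS2060), 0.924% (YPS2066), 0.0162% (YPS2067), 0.68% (YPS2079), 0.292% (YPS3060) and 1.83% (YPS3137) of genes did. At an unadjusted limma p under 0.05 were 8 of 9 in YPS2066, 5 in YPS3137, 3 in YPS183, 1 in YPS2067 and 0 in the other 4. The share of all genes at that unadjusted threshold was not counted. The SE here comes from scatter within the cultures. Over samples of set B alone, 0 histone genes were called for YPS3395 and 5 for YPS2073, beside 237 and 332 of 6172 genes. With set A alone they numbered 2 and 1, beside 239 and 207.

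With 1 mean per strain, so that the spread between strains is counted, no histone gene differed in level between YPS3395 and the 9 S. cerevisiae strains, where 2.43% of genes did. HTA1 averaged 2.00 in YPS3395 and 0.78 in the others, a difference of 1.22 ± 0.56 (SE; limma adjusted p = 0.341). HTB2 differed by 0.66 ± 0.21 (limma adjusted p = 0.150) and was the histone gene with an unadjusted p under 0.05, at 0.0104. The S. paradoxus side is 1 strain with no spread of its own, assumed to vary like the S. cerevisiae strains. On that assumption, 3 genes were called without YPS2073, YPS3060 and YPS3137: HTA1 (1.52, limma adjusted p = 0.0250), HTA2 (1.18, 0.0345) and HHF1 (1.35, 0.0432). A difference in transcript level and one in how well the probes match the S. paradoxus gene cannot be told apart. The first S phase rise was not shown to differ for any histone gene, beside 0.0486% of all genes, and 0 were at an unadjusted limma p under 0.05.

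The shape of the course, with the level removed, differed from the other S. cerevisiae strains for 4 histone genes in YPS2073, where 9.06% of genes did. It did so for none in YPS3395 (4.33% of genes), YPS2067 (3.24%), YPS2066 (2.07%), YPS3060 (1%), YPS3137 (0.956%), YPS183 (0.859%), YPS2055 and YPS2079 (0.0648% each) or YPS2060 (0.0324%). The share of all genes at an unadjusted limma p under 0.05 was not counted. At that threshold were 3 of 9 in YPS3395, 1 in YPS183 and 0 in the other strains but YPS2073, which had 6. The largest deviations of HTA2, HTB2 and HHF1 were at 135 min, at -1.71, -1.34 and -2.07 (limma adjusted p = 0.0144, 0.0176 and 0.0176). That of HTB1 was 1.80 at 0 min (0.0354). These 4 came down to 1 after quantile normalization, where 224 of 6172 genes were called in YPS2073, beside 559 before it. Quantile normalization also gave 6 in YPS183, where calls over all genes went from 53 to 780.

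Genes with the most similar course were sought by Pearson's r with the mean of the 9 histone genes over the 173 samples, each strain's mean removed, as a description across samples that share cultures. The members' own r with the mean of the other 8 ran from 0.90 to 0.94 for the core genes and was 0.63 for HHO1. HTZ1, which encodes the histone variant H2A.Z, came first with 0.69. Over 133 samples on 2007 prints alone it had 0.70 and rank 3. Next were the cell wall protein gene TOS6 (0.64), the histone deacetylase gene HOS3 (0.64), YOR248W (0.64) and SRL1 (0.63). PMI40 and PSA1, of mannose metabolism, had 0.61 and 0.57, and ERP5 and ERV25, of vesicle transport, 0.60 and 0.55. The spindle pole gene SPC98 had 0.57, and 0.70 with rank 2 on 2007 prints alone.

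A further list of 30 genes for histone variants, regulators, chaperones, acetyltransferases and turnover showed smaller changes, and 29 were measured. From the early to the first S phase window 5 rose and 1 fell, beside 5.35% and 4.83% of all genes, with a list median of 0.06 beside -0.01 for all genes. HTZ1 rose by 0.66 ± 0.12 (SE; limma adjusted p = 7.44e-04), in 10 of 10 strains. POB3, a subunit of the FACT chaperone, rose by 0.24 (limma adjusted p = 0.00503), and RTT109, which acetylates H3, by 0.23 (0.00174). HIR3, of the HIR repressor complex, rose by 0.22 (limma adjusted p = 0.0109) and CAC2, of chromatin assembly factor 1, by 0.23 (0.0298). NAP1, a chaperone of H2A and H2B, changed by -0.27 (limma adjusted p = 0.0312), higher in 3 of 10 strains.

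None of the 29 passed in the other 3 window comparisons. At an unadjusted limma p under 0.05 were 5 from the first S phase to the mitotic window (920 of 6172 genes), 1 from the mitotic to the later S phase window (239 genes) and 2 between the S phase windows (1110 genes). Within strains, HTZ1 was called for time in YPS183, YPS2067 and YPS2073, CAC2 in YPS2066 and YPS2067, and ASF1, an H3 and H4 chaperone, in YPS2066. NAP1 was called in YPS183, SPT21, an activator of histone genes, in YPS2067, RLF2, of chromatin assembly factor 1, in YPS2073, and YTA7, a regulator of histone genes, in YPS3395. That made 2 of 29 in YPS183, YPS2066 and YPS2073, where 3.05%, 6.84% and 5.9% of all genes were called. It made 3 in YPS2067 (8.3% of genes) and 1 in YPS3395 (5.12%). Whether the list exceeded these shares was not tested. No listed gene was called in YPS2055, where 6 histone genes were. The shape of the course differed for 3 of 29 in YPS2066, where 2.07% of all genes did, and for 3 in YPS2073, where 9.06% did. In YPS2066 these were ASF1 (largest deviation 0.80 at 135 min), CAC2 (0.54 at 135 min) and RTT109 (0.35 at 260 min). In YPS2073 they were HTZ1 (-1.12 at 176 min), RLF2 (-0.71 at 218 min) and VPS75, a histone chaperone (-0.55 at 218 min).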

How the data were processed

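Per the labels, each of 10 strains gave 1 culture, and each sample was labelled with 2 dyes and hybridised against a common reference. The authors' deposited log ratios, with dye swaps combined into 1 column per sample, were read as log2. The base of the logarithm, the centring and the normalization are not given in the sources used here, so sizes hold only if the base is 2. The direction is likely sample over reference. The table held 6172 genes with 0 missing values, 7 of its columns matched no sample and were not used, and 6161 genes had identical values in the series matrix. Precision is limited by array number: 1 array for 8 samples, 2 for 132 and more for 33.

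Tests used limma 3.58.1 in R 4.3.3, fitted across all genes, with p-values adjusted by Benjamini-Hochberg and called under 0.05. The early to first S phase comparison and the time course test in YPS2055 were also run on simulated data. The other comparisons were not. Window means per strain were fitted with strain as a block, and time courses with a natural spline of 7 degrees of freedom. Gene pairs were compared by exact sign flips (1024). Alternatives were quantile normalization, 2007 prints alone, set A or set B alone, wider windows, 5 degrees of freedom, a sampling set term and leaving out strains. Leaving out 3 strains in the window fits, and each strain in the pair tests, was chosen after seeing the data. The strains are cultures of different genotype, so p-values over strains measure the spread between them. In the window fits this spread is pooled over the 4 windows and moderated across genes. A gene's SE is therefore the same in each window comparison and can differ from the spread of that change alone. The members, landmarks and gene lists were chosen with earlier results of these data known. Every histone gene and every list gene that passed is named. No sequence or motif was analysed here.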

Additional observations from a re-analysis of the deposited data

Results flagged for a closer look

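Of 36 sets of 10 strain values tested by Dixon's criterion (9 genes in 4 window comparisons), 5 held a strain far from the others, and chance flags about 1 in 20. YPS2073 was far below the rest in the first S phase rise of HTA2, at -0.46 with the next strain at 1.26. The same strain stood apart for HHF1, at -0.41 with the next at 1.77, and for HHT1, at -0.006334 with the next at 1.12. YPS2055 fell farthest from the first S phase to the mitotic window for HTB2, at -2.11 with the next at -1.14, and for HHF1, at -2.48 with the next at -1.23. The shape of the course in YPS2073 differed from that of the other S. cerevisiae strains, by the spline test itself, for HTA2 (-1.71), HTB1 (1.80), HTB2 (-1.34) and HHF1 (-2.07). Arrays of older prints were used in 17 of the 18 samples of YPS2073 and in 0 of YPS2055, and the print's part in these values was not tested.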

How the results depend on the processing

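The count of genes that rose into the first S phase window was 8 or 9 under all alternatives, 8 without YPS2055 among the leave-one-out fits. The fall to the mitotic window was called for 8 genes, for 2 after quantile normalization, for 0 with set A alone, and for 3 to 8 when 1 strain was left out. The later rise had 0 calls throughout, and the later against the first S phase window 0 to 1 when 1 strain was left out and 1 over 2007 prints alone. In that comparison HHF1 (0.20) and HHT1 (0.0135) turned positive with set B alone. Time course calls became 6, 9 and 8 in YPS183 (sampling set term, quantile normalization, 2007 prints), beside 438, 1107 and 657 of 6172 genes. In YPS2066 they became 5, 1 and 6, beside 630, 248 and 738. In YPS2067 they became 5, 1 and 5, beside 865, 474 and 1051, with 5 at 5 degrees of freedom, beside 645. They became 3 in YPS2055 under quantile normalization (173 genes) and 1 in YPS2079 on 2007 prints (146). Shape calls became 6 in YPS183 (780 genes) and 1 in YPS2073 (224) under quantile normalization. Level calls became 1 (quantile), 1 (set A) and 5 (set B) in YPS2073, beside 48, 207 and 332 genes. They became 1 in YPS3137 with set A (292), and 2 and 0 in YPS3395 with set A and set B (239 and 237). The S. paradoxus level comparison had 3 calls without YPS2073, YPS3060 and YPS3137.

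Pair differences that were not called changed sign: HTA1/HTA2 (-0.0165 with set A, -0.0213 on 2007 prints), HTB1/HTB2 (-0.0023 on 2007 prints), HHF1/HHF2 (-0.0593 with set A), HTA1/HTB1 (-0.19 with set A, -0.00891 with wider windows) and HTA2/HTB2 (-0.12 with set A, -0.0200 with wider windows). The calls of HHT1/HHF1 (-0.52) and HHT2/HHF2 (-0.17) were lost with set B alone. Leaving out 1 strain gave -0.0493 to 0.0663 for HTA1/HTA2, 0.00523 to 0.0967 for HTB1/HTB2, -0.203 to -0.0611 for HHT1/HHT2, -0.0340 to 0.0876 for HHF1/HHF2, -0.0986 to 0.0692 for HTA1/HTB1 and -0.0372 to 0.0706 for HTA2/HTB2. It gave -0.82 to -0.59 for HHT1/HHF1 and -0.56 to -0.44 for HHT2/HHF2, both called each time. Median first maxima read from the fitted curve moved to 111 min (YPS2055, YPS2066, YPS3060, YPS3137), 135 min (YPS183, YPS2060, YPS2079) and 87 min (YPS2073), and after quantile normalization to 63 min (YPS2060, YPS3060), 87 min (YPS2066, YPS3137) and 152 min (YPS2073). Later maxima moved to 325 min (YPS183, YPS2079), 301 min (YPS3137), 284 min (YPS3395) and 260 min (YPS2060) on the fitted curve, and to 325 min in YPS2055, YPS3137 and YPS3395 and 251 min in YPS2073 after quantile normalization. Over all genes, calls for the first rise numbered 628, and 48 with set B alone and 364 to 834 with 1 strain left out, lowest without YPS2055. Those for the fall numbered 132, and 0 with set A alone, 356 on 2007 prints, 248 without the 3 strains and 44 to 208 with 1 strain left out, lowest without YPS2055 and highest without YPS2073. Those for the later against the first S phase window numbered 318, and 21 with set A, 532 on 2007 prints and 153 to 394 with 1 strain left out, lowest without YPS183. The cause was not tested. Signal over background was not analysed here.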
